A study of Mus musculus with 10 samples.

Results

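Brains lacking COP1, cJun, ETV1 and ETV5 together, labelled COP1.cJun.ETV1.ETV5 QKO and called QKO here, were compared with brains of the COP1 het control across all genes. Both genotypes were chosen by their labels, and they account for 4 of the 10 libraries of the series, 2 each. The other 6 libraries, used for reference, are pairs labelled COP1 KO (KO), COP1.cJun DKO (DKO) and COP1.cJun.ETV1 TKO (TKO). RNA came from mouse brains at E18.5 without the olfactory bulbs, and polyadenylated transcripts were sequenced. No agent was applied to any group. The labels name no allele, Cre driver, strain, litter or sex, so the cells in which each gene was deleted are not known from the sources used here. The control is heterozygous for COP1, and the labels give no state of cJun, ETV1 and ETV5 in it.

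COP1 is the substrate-binding part of a cullin-RING ubiquitin ligase. It marks transcription factors for destruction by the proteasome, among them cJun, a subunit of the AP-1 dimer, and the ETS factors of the PEA3 group, ETV1, ETV4 and ETV5. In cells without COP1 these proteins are known to accumulate, and PEA3 factors act downstream of FGF receptor and ERK signalling, a pathway with roles in making glia. Of the genotypes sequenced, QKO is the one with the most of these substrates deleted. What still differs between QKO and control is the question here.

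The control libraries held 43384681 and 43915724 counts and the QKO libraries 38052935 and 41782062. Genes of mature neurons had a summed level between 3325 and 3569 nRPKM in these 4 libraries (nRPKM is the authors' RPKM adjusted by a size factor, a level per length), which fits the labelled tissue. The labels do not say whether the libraries of QKO are of separate embryos, and p-values reflect only how far these samples spread, which may be a technical spread there. Control 1 had 1848 CPM (counts scaled to a common library size with TMM factors) of Xist, which coats the silenced X chromosome, and 0 counts of the Y-linked Uty. Control 2 and both QKO libraries had at most 1.61 CPM of Xist and between 23.1 and 26.9 CPM of Uty. Sex is therefore unbalanced between the groups. The QKO libraries also differed from each other. Growth hormone and other pituitary transcripts summed to 61.7 nRPKM in QKO 1 and 2.35 in QKO 2, with 1.79 and 2.19 in the controls. The 12 HOX genes, which mark the caudal hindbrain, lay on average 0.20 log2 units below the control mean in QKO 1 and 2.97 below it in QKO 2 (differences of -0.20 and -2.97). The part of these differences in the results was not tested, beyond the fits without a library or with a covariate given below.

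QKO and control brains differed in few genes. Of 18671 genes tested, 44 (0.236%) were called by edgeR's quasi-likelihood test at a Benjamini-Hochberg adjusted p under 0.05, with 25 higher (0.134%) and 19 lower (0.102%) in QKO. In the same fit QKO differed from KO in 240 genes (1.29%) and from TKO in 54 (0.289%), and KO differed from the same controls in 137 genes (0.734%), DKO in 79 (0.423%) and TKO in 28 (0.15%). The comparisons with control share their control libraries, and those of QKO share the QKO libraries. The median log2 fold change of all genes tested was 0.00. The CPM of the 2 groups did not overlap for any of the 44, as for 34.9% of all genes tested. Of the 44, 26 differed by at least 2-fold and 8 by less than 1.5-fold. In 33 of them both QKO libraries lay outside the range of the 8 other libraries, 17 above it and 16 below it. The 8 include the controls used to call the 44, which favours such a count. Its share over all genes tested was not taken. QKO also differed in the same direction from TKO in 22 of the 44 and from KO in 26, with 19 called in both and 15 in neither. The QKO libraries that chose the 44 are used again there, which favours a shared direction.

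Library by library, the calls were uneven. Without control 1, 14 of the 44 were called again, without control 2 15, without QKO 1 24 and without QKO 2 34, and all 44 kept their direction in each fit. The lone library of a group is then assumed to vary like the other groups. In all 4 of these fits 13 genes were called, which were Jun, Etv5, Ednrb, Serpina3n, Pla2g4e, Ero1b, Lyrm7, Gpr137b, Gpr137b-ps, Ubb-ps, 2610507I01Rik and the unnamed genes 100502964 and 100504494. In none of them B9d1, Dsp, Gm7444, Prnd, Prss12, Samd9l and Scp2 were called. With Xist as a covariate 21 of the 44 were called, and with the mean HOX level as a covariate 30.

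**Figure D1:**
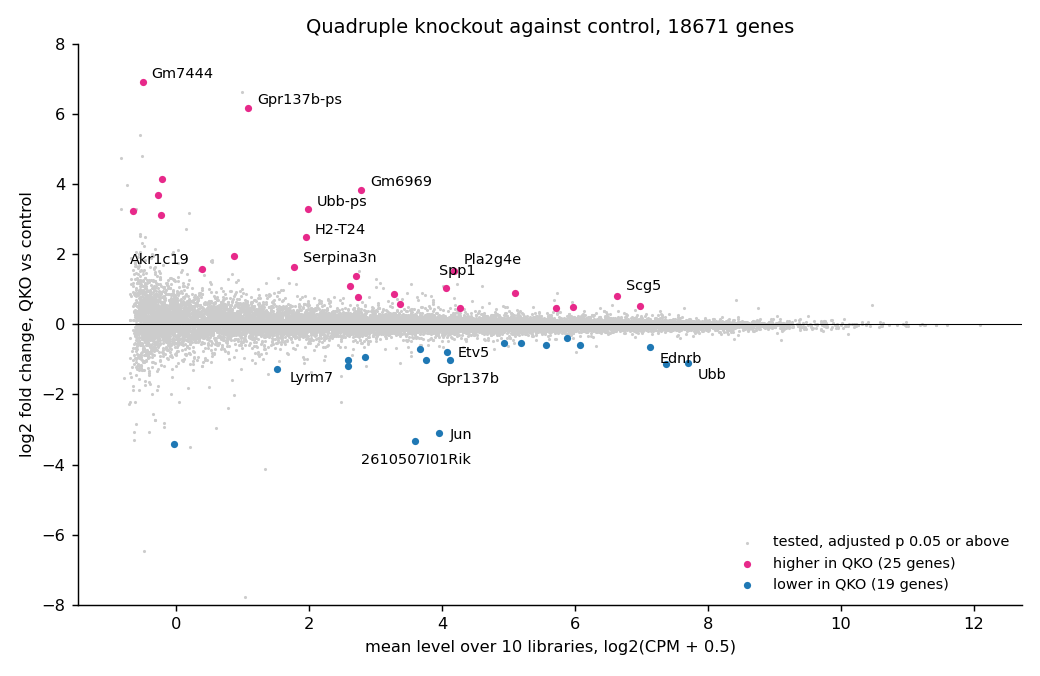
Log2 fold change of QKO against control (vertical) over the mean level in all 10 libraries, as log2(CPM + 0.5) (horizontal), with 1 point per gene tested. The 25 genes called higher and the 19 called lower are coloured, the other genes are grey, and 3 genes lie outside the plotted range. Called genes are spread over low and high levels, and most genes lie close to 0.

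Among the 4 targeted genes, the transcripts of Jun and Etv5 fell in QKO and those of Etv1 and Cop1 were not called. Jun (gene 16476), which encodes cJun, was at 52.0 and 51.9 CPM in the controls and at 7.11 and 4.99 CPM in QKO. Both QKO libraries were far below both controls, and Jun fell 8.60-fold (log2 fold change -3.10 ± 0.22 SE, n = 2 per group, edgeR adjusted p = 0.000111). Etv5 (gene 104156) was at 27.9 and 30.0 CPM in the controls and at 16.6 and 17.0 CPM in QKO. It fell 1.73-fold (-0.79 ± 0.08, adjusted p = 0.00169). Etv1 (gene 14009) was at 22.1 and 22.7 CPM in the controls and at 21.7 and 20.04 CPM in QKO, and its difference of -0.11 ± 0.11 on the log2 scale did not pass (95% interval -0.34 to 0.13). Cop1 (gene 26374) was at 27.5 and 26.02 CPM in the controls and at 21.8 and 24.1 CPM in QKO, and its -0.22 ± 0.09 did not pass either (adjusted p = 0.66). Reads were counted over whole genes, in which a deleted exon can go unseen, so only Jun checks a label. It also separates DKO and TKO, with between 5.16 and 10.2 CPM, from control and KO.

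The ETS transcripts stood lower in KO than in QKO, although by the labels KO carries ETV1 and ETV5 and QKO does not. Etv5 was at 11.1 and 11.2 CPM in KO, and QKO was higher than KO by 0.59 ± 0.08 on the log2 scale (adjusted p = 0.00456, or 0.0655 without KO 1). Etv1 was at 8.16 and 10.6 CPM in KO, and QKO was higher by 1.16 ± 0.11 (adjusted p = 0.000474). TKO, whose label does not list ETV5, was closer to QKO in both transcripts. Over the fits without 1 library, QKO exceeded TKO by 0.04 to 0.11 for Etv5 and by 0.22 to 0.33 for Etv1 on the log2 scale. Etv4 (gene 18612), the PEA3 factor that no genotype of the series deletes, is the member whose own deletion cannot alter its counts. It was at 13.1 and 15.4 CPM in the controls, 3.03 and 3.07 in KO, 4.06 and 4.60 in DKO, 5.34 and 5.83 in TKO, and 9.76 and 9.84 in QKO. The 5 groups do not overlap, and from lowest to highest they stood in the order KO, DKO, TKO, QKO, control. QKO exceeded KO by 1.68 ± 0.12 (adjusted p = 9.21e-05) and TKO by 0.81 ± 0.12 (adjusted p = 0.0171). The call against KO held without any 1 of the 4 libraries, and that against TKO was lost without QKO 2 (adjusted p = 0.0777), TKO 1 (0.198) or TKO 2 (0.12). Against control, Etv4 in QKO stood at -0.54 ± 0.11 with a 95% interval of -0.79 to -0.29, and did not pass (adjusted p = 0.127, and from 0.0399 with no filter on low counts to 0.89 without control 2 over the alternatives). Per length, Etv5 was the most abundant PEA3 transcript in controls at 6.98 ± 0.365 nRPKM (SD, n = 2), followed by Etv4 at 5.61 ± 0.659 and Etv1 at 4.88 ± 0.0893. In QKO the corresponding levels were 4.04 ± 0.0927, 3.86 ± 0.0356 and 4.54 ± 0.233 nRPKM.

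**Figure D2:**
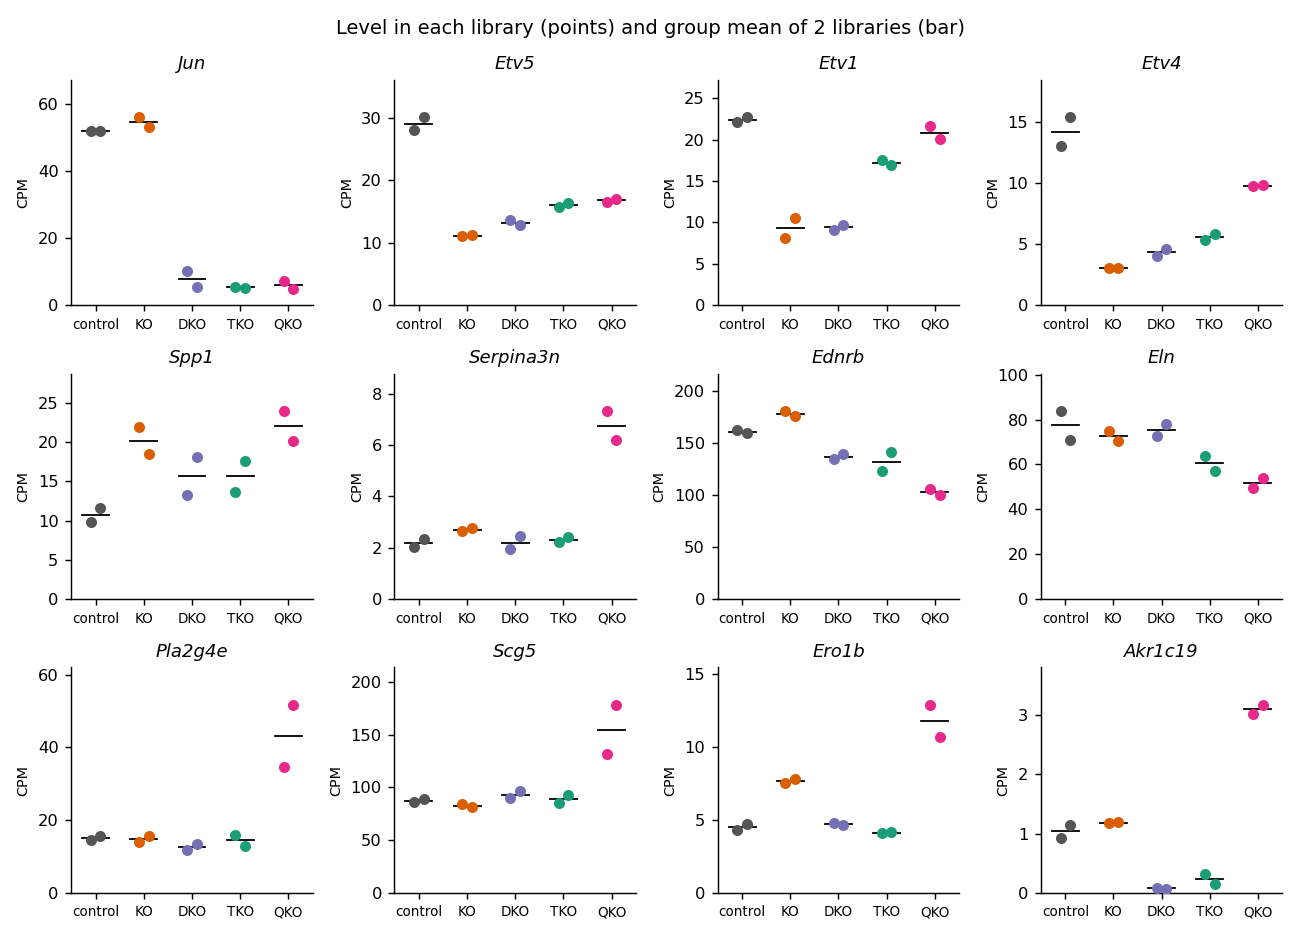
CPM of 12 genes in each of the 10 libraries, with points for libraries and bars for the mean of the 2 libraries of a group, each panel starting at 0. Etv4 climbs from about 3 CPM in KO to 9.8 in QKO, Spp1 is above control in every other group, and Serpina3n, Pla2g4e and Scg5 are raised in QKO libraries alone.

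Glial genes that were higher in KO were not called in QKO. They come from a list of 32 genes chosen because they were called in KO vs control in these data, so their KO values and the test of QKO against KO, which uses the same KO libraries, are not independent of that choice. Of the 32, 0 were called in QKO vs control. At an unadjusted p under 0.05 by edgeR, 14 were lower and 1 was higher there. KO vs control and QKO vs control use the same control libraries, so a shared sign is favoured by the choice of genes. The 13 genes that fell in KO hold 7 of the 14, and nothing is read from those. Of the 19 that rose in KO, 7 were lower and 1 was higher, against 3.5% lower and 3.38% higher of all genes tested. The 19 that rose in KO had a median log2 fold change of 1.02 there and of -0.17 in QKO vs control, and 16 of the 19 values in QKO were negative. All 19 were called lower in QKO than in KO, where 0.932% of all genes tested were. With 1 of the 4 libraries left out, most of the 19 kept that call in every fit. The exceptions were Inka2 without either KO library, and Col5a3 and Gna14 without KO 1. In bulk RNA, fewer cells of a type and less RNA per cell cannot be told apart.

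Among transcription factors of the oligodendrocyte lineage, Olig2, which specifies oligodendrocyte precursors, was at 31.5 and 34.4 CPM in the controls, 74.9 and 66.9 in KO, and 30.7 and 29.1 in QKO. Its level in QKO was within 0.14 log2 units of control (-0.14 ± 0.09, 95% interval -0.34 to 0.06) and 1.25 ± 0.09 below KO (difference -1.25, adjusted p = 8.3e-05). Olig1, its neighbour and partner, was at -0.11 ± 0.13 against control and -1.33 ± 0.13 against KO. Sox10, a regulator of oligodendrocyte fate, was at -0.36 ± 0.17 and -1.38 ± 0.16, and its relative Sox8 at -0.17 ± 0.08 and -0.81 ± 0.08. Pdgfra, the growth factor receptor of the precursors, was at -0.20 ± 0.08 and -0.78 ± 0.08. Olig2, Sox8 and Pdgfra were also called lower in QKO than in TKO, by -0.76 ± 0.09, -0.46 ± 0.08 and -0.46 ± 0.08. Of 18 precursor genes 0 were called against control, 14 had negative values, and their median was -0.15.

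Gfap, the intermediate filament of astrocytes, was at 22.8 and 21.5 CPM in the controls, 95.2 and 81.5 in KO, and 18.1 and 9.36 in QKO. The QKO libraries lay below the controls, QKO 2 further than QKO 1, and the log2 fold change of -0.70 ± 0.27 did not pass (95% interval -1.29 to -0.10, adjusted p = 0.643). Vim and Nes, filaments of radial glia, were at -0.22 ± 0.07 and -0.19 ± 0.08 against control and at -0.88 ± 0.07 and -0.76 ± 0.08 against KO. The growth factor receptors Egfr and Fgfr3 were at -0.16 ± 0.09 and -0.23 ± 0.10 against control. Aldh1l1, an astrocyte folate enzyme, was at -0.09 ± 0.08, and Slc1a3, an astrocyte glutamate transporter, at -0.19 ± 0.07. Aqp4, the water channel of astrocyte endfeet, was not among the genes called in KO. It was at 72.2 and 68.3 CPM in the controls and at 56.0 and 38.4 in QKO (-0.58 ± 0.15, adjusted p = 0.282), and was called lower than in TKO (-0.83 ± 0.15, adjusted p = 0.0441). Of 18 astrocyte genes 0 were called against control, 16 had negative values, 7 were lower at an unadjusted p under 0.05, against 3.5% of all genes tested, and the median was -0.17.

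Of the 19, the 1 higher than control in QKO at an unadjusted p under 0.05 was Inka2. This inhibitor of the kinase PAK4 was at 23.8 and 25.0 CPM in the controls, 59.6 and 59.5 in KO, and 38.2 and 30.7 in QKO. It lay between the other groups, at 0.50 ± 0.12 against control (95% interval 0.24 to 0.75, adjusted p = 0.224) and -0.79 ± 0.11 against KO. Trib1, a pseudokinase that brings substrates to COP1, was at 0.16 ± 0.08 against control and -0.75 ± 0.08 against KO. Prokr1, a prokineticin receptor, and Prr5l, a partner of mTOR complex 2, were at -0.10 ± 0.14 and 0.00 ± 0.12 against control, after 1.46 and 1.12 in KO. Dio2, which activates thyroid hormone, went from 1.18 ± 0.16 in KO vs control to -0.64 ± 0.17 in QKO vs control, which did not pass (adjusted p = 0.336). The 13 genes called lower in KO had a median of -0.90 in KO vs control and of -0.42 in QKO vs control. Both comparisons use the same 2 control libraries and the first chose the genes, so a shared sign and a smaller size in QKO are favoured by that choice and nothing is read from them. Of these 13, 4 were called higher in QKO than in KO (0.353% of all genes tested were), which were Etv4, Eomes of intermediate progenitors, the neuropeptide precursor Tac1 and the ERK pathway inhibitor Spred3. Among the 9 others were genes of the hindbrain, such as Atoh1 at -0.92 ± 0.21, Lbx1 at -1.05 ± 0.34 and Hoxb2 at -1.02 ± 0.38 in QKO vs control. The HOX list as a whole had 12 of 12 negative values, a median of -0.98 and 0 calls, beside the difference between QKO 1 and QKO 2 given above.

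**Figure D3:**
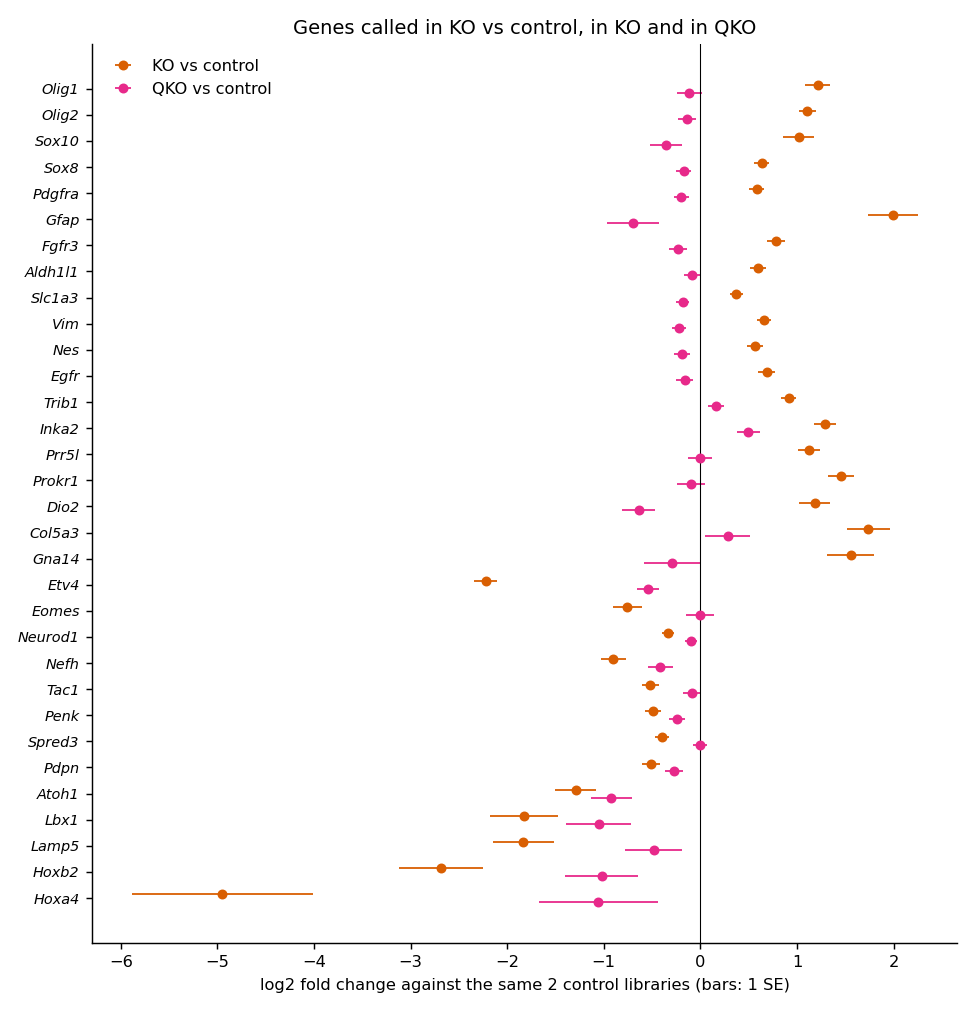
Log2 fold change against the same 2 control libraries for 32 genes called in KO vs control, in KO (orange) and in QKO (magenta), with bars of 1 SE. For genes raised in KO the QKO points lie near or left of 0, except Inka2 at 0.50, and for genes lowered in KO they lie between the KO points and 0.

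Genes associated with reactive glia were split. Of 14 tested, Serpina3n and Spp1 rose in QKO and 12 were not called, where 0.134% of all genes tested were called higher. At an unadjusted p under 0.05, 3 of the 14 were lower, against 3.5% of all genes. Serpina3n (gene 20716), a secreted inhibitor of serine proteases, was at 2.04 and 2.32 CPM in the controls and at 7.32 and 6.19 CPM in QKO. In KO, DKO and TKO it was between 1.95 and 2.76 CPM, so both QKO libraries stood above all 8 others. It rose 3.10-fold (1.63 ± 0.16, adjusted p = 0.00138), and exceeded TKO by 1.55 ± 0.16 (adjusted p = 0.00129). Spp1 (gene 20750), which encodes osteopontin, a secreted matrix phosphoprotein, was at 9.86 and 11.6 CPM in the controls and at 23.95 and 20.1 CPM in QKO. Unlike Serpina3n it was also above control in KO, at 21.9 and 18.4 CPM, and the difference of QKO from KO (0.13 ± 0.16) did not pass. The control libraries used to call Spp1 serve KO as well, which favours a higher level there. Spp1 rose 2.05-fold in QKO (1.04 ± 0.17, adjusted p = 0.0353), and the call was lost without control 1 (adjusted p = 0.305), control 2 (0.169) or QKO 1 (0.129) and with Xist as a covariate (0.0864). Gfap, Vim and Nes are on this list too. Serpina3h, a pseudogene that lies within the same 3 tested genes as Serpina3n in the gene order, had 3 and 2 counts in the controls and 25 and 20 in QKO, a ratio of 9.75 with an exact 95% interval of 3.88 to 31.5 for counting error. It was called (adjusted p = 0.0334), and the call was lost in 3 of the 4 fits that leave out 1 library (highest adjusted p = 0.368).

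Ednrb was the called gene of radial glia. Ednrb (gene 13618), the endothelin B receptor, was at 163 and 159 CPM in the controls and at 106 and 100.3 CPM in QKO. All other groups lay above QKO, from 123 CPM in TKO 1 to 180 CPM in KO 1. It fell 1.56-fold (-0.64 ± 0.07, adjusted p = 0.00252) and was lower than in KO by -0.79 ± 0.07 (adjusted p = 0.000345). Of the 19 radial glia genes 1 was called, where 0.102% of all genes tested were called lower. Of the 19, 16 had negative values and 8 were lower at an unadjusted p under 0.05, against 3.5% of all genes, with a median of -0.16. The Notch target Hes5 was among the 8, at -0.39 ± 0.12 (adjusted p = 0.44). Eln (gene 13717), the elastin of extracellular fibres, was at 83.8 and 70.9 CPM in the controls and at 49.5 and 53.9 CPM in QKO. It fell 1.49-fold (-0.58 ± 0.09, adjusted p = 0.0271), a call lost without control 1 (adjusted p = 0.23) or QKO 1 (0.117). The meninges list, whose cells make much of the matrix around the brain, had 0 calls, a median of -0.09, and summed levels of 590 and 548 nRPKM in the controls and 564 and 451 in QKO; its part in the Eln value was not tested.

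Several called genes stood higher in both QKO libraries than in all 8 others, among them Pla2g4e, Scg5, Ero1b and Akr1c19. Pla2g4e (gene 329502), a cytosolic phospholipase that makes precursors of N-acylethanolamines, was at 14.6 and 15.7 CPM in the controls and at 34.7 and 51.7 CPM in QKO. It rose 2.85-fold (1.51 ± 0.17, adjusted p = 0.00252) and was between 11.9 and 16 CPM in the 6 other libraries. Scg5 (gene 20394), the chaperone of prohormone convertase 2, was at 86.0 and 89.2 CPM in the controls and at 132 and 178 CPM in QKO. It rose 1.77-fold (0.82 ± 0.11, adjusted p = 0.0149), and the call was lost without control 1 (adjusted p = 0.162) or control 2 (0.127). Both genes stood higher in QKO 2 than in QKO 1, at ratios of 1.49 and 1.36. Ero1b (gene 67475), an oxidase of the endoplasmic reticulum that is abundant in secretory cells, was at 4.28 and 4.75 CPM in the controls and at 12.9 and 10.7 CPM in QKO. It rose 2.61-fold (1.38 ± 0.12, adjusted p = 0.000729), and in KO it lay between them at 7.51 and 7.78 CPM. Akr1c19 (gene 432720), an aldo-keto reductase, was at 0.926 and 1.15 CPM in the controls, 3.02 and 3.17 CPM in QKO, and between 0.0626 and 0.319 CPM in DKO and TKO. It rose 2.98-fold in QKO (1.58 ± 0.23, adjusted p = 0.0197), and the call was lost without either control library (adjusted p = 0.208 and 0.127).

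H2-T24 (gene 15042), a nonclassical MHC class I gene, was at 1.94 and 1.31 CPM in the controls and at 13.0 and 5.23 CPM in QKO. The QKO libraries differed from each other 2.5-fold, as a ratio of 0.401 for QKO 2 over QKO 1 with an exact 95% interval of 0.341 to 0.471. The gene was also high in KO and TKO, between 5.05 and 6.91 CPM, and low in DKO, at 0.876 and 0.313 CPM. It rose in QKO (2.48 ± 0.40, adjusted p = 0.0334), the only call among 14 MHC class I and antigen processing genes tested. The call was lost without control 1 (adjusted p = 0.165), control 2 (0.369) or QKO 1 (0.0539) and by limma-voom. H2-K1, H2-D1 and B2m, the classical class I chains and their partner, were at -0.67 ± 0.35, -0.60 ± 0.22 and -0.31 ± 0.12 and did not pass.

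Another 8 named genes rose. Dsp, the desmoplakin of desmosomes, was at 1.10 ± 0.19, and Rpa3, a subunit of the replication protein A complex, at 0.88 ± 0.15. Prnd, which encodes the prion-like protein doppel, was at 0.77 ± 0.13, B9d1, a protein of the ciliary transition zone, at 0.59 ± 0.09, and Tmem44 at 0.53 ± 0.08. Dlx6os1, a noncoding RNA of GABAergic progenitors, was at 0.49 ± 0.08, Prss12, the protease neurotrypsin, at 0.47 ± 0.08, and Glrx2, a mitochondrial glutaredoxin, at 0.46 ± 0.07. These last 3 had close values in KO vs control, at 0.44 ± 0.08, 0.54 ± 0.08 and 0.44 ± 0.07. All 3 were called there, as were 0.734% of all genes tested. They differed between QKO and KO by at most 0.06 on the log2 scale. The control libraries that chose these genes are used again in KO vs control. That favours close values and a call there, and nothing is read from them. The 19 genes of the GABAergic interneuron list, which does not hold Dlx6os1, had 0 calls and a median of 0.02. Each of these 8 calls was lost in at least 2 of the 4 fits that leave out 1 library, at adjusted p of up to 0.398.

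Among genes that fell, 2610507I01Rik (gene 72203), a noncoding RNA, had the smallest p of all. It was at 20.8 and 19.6 CPM in the controls and at 1.95 and 2.09 CPM in QKO, and between 10.8 and 21.3 CPM in the 6 other libraries. It fell 9.97-fold (-3.32 ± 0.11, adjusted p = 9.16e-08). Lyrm7 (gene 75530), an assembly factor of respiratory complex III, was at 6.64 and 6.68 CPM in the controls and at 3.15 and 2.74 CPM in QKO, and fell 2.26-fold (-1.18 ± 0.13, adjusted p = 0.00252). Crb1 (gene 170788), an apical polarity protein of neuroepithelium and retina, was at 6.20 and 5.37 CPM in the controls, 2.81 and 2.93 CPM in QKO, and 8.97 and 7.90 CPM in TKO. Its log2 fold change was -1.01 ± 0.14 against control (adjusted p = 0.0157) and -1.56 ± 0.14 against TKO. Metap1d, a methionine aminopeptidase of mitochondria, fell by 1.01 ± 0.13 on the log2 scale and Mrpl55, of the mitochondrial ribosome, by 0.72 ± 0.11. Mmut, the mitochondrial methylmalonyl-CoA mutase, fell by 0.53 ± 0.09, Scp2, a sterol carrier, by 0.52 ± 0.09, and Rapgef4, a cAMP-activated exchange factor for Rap, by 0.38 ± 0.06. Samd9l, an interferon-inducible gene, fell by 0.93 ± 0.15. 5930438M14Rik, another noncoding RNA, had 27 and 33 counts in the controls and 2 and 3 in QKO, a control to QKO ratio of 11.1 with an exact 95% interval of 4.49 to 35.3. Without control 1 and without control 2, the calls of Crb1, Metap1d, Mrpl55, Mmut, Scp2, Rapgef4 and Samd9l were lost, at adjusted p between 0.0537 and 0.324, and apart from Metap1d each was also lost without 1 or both QKO libraries. The call of 5930438M14Rik was lost without control 2 (adjusted p = 0.0853) or QKO 1 (0.0569).

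Of the 44 called genes, 7 belong to 4 pairs of a gene and a near-identical pseudogene copy, in which the share of counts on the copy differed between QKO and control. The pairs are Gpr137b and Gpr137b-ps, Ubb and Ubb-ps, Cox7a2l and Gm6969, and Etv1 and Gm5454. Stretches of 60 bases from each pair are shown because the reads were 75 bases long and a gene and its copy can be separated only where bases differ. Sequences are from GENCODE M21 transcripts, 5′ to 3′, and capitals mark the bases that differ within the pair.
Gpr137b: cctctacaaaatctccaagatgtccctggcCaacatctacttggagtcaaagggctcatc
Gpr137b-ps: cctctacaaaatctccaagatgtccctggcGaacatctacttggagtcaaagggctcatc
Ubb: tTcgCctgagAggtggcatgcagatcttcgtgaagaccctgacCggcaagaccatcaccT
Ubb-ps: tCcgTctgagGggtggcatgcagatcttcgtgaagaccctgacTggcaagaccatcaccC
Cox7a2l: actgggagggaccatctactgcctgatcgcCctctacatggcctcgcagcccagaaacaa
Gm6969: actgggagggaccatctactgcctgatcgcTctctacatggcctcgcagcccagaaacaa
Etv1: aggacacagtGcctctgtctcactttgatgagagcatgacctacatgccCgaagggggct
Gm5454: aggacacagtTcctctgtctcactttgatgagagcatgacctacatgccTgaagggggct
Over the whole alignment the pairs were 99.6% (Gpr137b), 98.5% (Ubb), 98.2% (Cox7a2l) and 99.7% (Etv1) identical. Of all 75-base windows of their transcripts, 21.4% of those of Gpr137b also occur in Gpr137b-ps, 46.2% of those of Ubb in its copy, 57.1% of those of Gm6969 in Cox7a2l and 75.3% of those of Gm5454 in Etv1. The deposited counts are of uniquely aligned reads, and the division of reads within each pair is therefore uncertain.

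Gpr137b (gene 83924), a membrane protein of lysosomes, was at 19.6 and 19.0 CPM in the controls and at 9.53 and 9.63 CPM in QKO, and fell 2.02-fold (-1.01 ± 0.09, adjusted p = 0.000729). Gpr137b-ps (gene 664862) was at 0.139 and 0.252 CPM in the controls and at 14.4 CPM in each QKO library (6.17 ± 0.28, adjusted p = 1.47e-06). The copy held 0.703 and 1.31% of the counts of the pair in the controls, 32.2 and 33.3% in KO, at most 1.66% in DKO and TKO, and 60.1 and 59.9% in QKO. Summed, the pair was at 0.30 ± 0.08 in QKO vs control and did not pass (adjusted p = 0.41), so that the call and the direction of Gpr137b ended when its copy was added.

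Cox7a2l (gene 20463), a factor of respiratory supercomplexes, was at 55.4 and 52.96 CPM in the controls and at 33.1 and 38.7 CPM in QKO (-0.59 ± 0.10, adjusted p = 0.0412). Gm6969 (gene 629383) was at 1.90 and 1.95 CPM in the controls and at 27.4 and 27.9 CPM in QKO (3.84 ± 0.59, adjusted p = 0.0271). The copy held 3.31 and 3.55% of the counts of the pair in the controls and 45.3 and 41.9% in QKO. The KO libraries were unlike each other, at 3.96% and 23.5%, and TKO was at 24.4 and 24%. The sum was at 0.18 ± 0.08 (adjusted p = 0.687), with the direction of Cox7a2l turned. Before summing, the call of Cox7a2l was lost without control 1 (adjusted p = 0.305), control 2 (0.223) or QKO 1 (0.174), and that of Gm6969 without either control library (0.23 and 0.263).

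Ubb (gene 22187), a polyubiquitin gene that is among the most abundant called genes, was at 258 and 277 CPM in the controls and at 155 and 96.0 CPM in QKO. It fell 2.13-fold (-1.09 ± 0.16, adjusted p = 0.0267). Ubb-ps (gene 218963) was at 1.30 and 1.58 CPM in the controls and at 8.38 and 19.7 CPM in QKO (3.28 ± 0.35, adjusted p = 0.00242). The QKO library with less Ubb had more Ubb-ps, and the copy held 5.13% of the pair in QKO 1 and 17.0% in QKO 2, after 0.50 and 0.568% in the controls and 4.20 and 5.58% in DKO. Unlike the pairs above, the sum was still lower in QKO, by -0.95 ± 0.13 (adjusted p = 0.0155). Of Ubb windows 18.7% also occur in another gene, Gm8797, which the sum leaves out. Whether reads on Gm8797 would alter the difference was not tested. The call of Ubb alone was lost without control 1 (adjusted p = 0.0924) or control 2 (0.183). The unnamed gene 100503279 moved with it, at 207 and 222 CPM in the controls and 122 and 73.3 CPM in QKO.

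Gm5454 (gene 432800), a processed copy of Etv1, fell in QKO (-1.27 ± 0.16, adjusted p = 0.00748) while Etv1 was at -0.11 ± 0.11. The copy held 18.2 and 17.2% of the counts of the pair in the controls, between 16.8 and 18.1% in KO, 14.1 and 15.6% in DKO, 10.7 and 12.6% in TKO, and 8.37 and 9.14% in QKO. Both QKO libraries and both TKO libraries, in which ETV1 is deleted by the labels, were below the other 6, and among those 6 both DKO libraries, in which the labels do not list ETV1 as deleted, were below control and KO. Summed with its copy, Etv1 was at -0.25 ± 0.10 in QKO vs control (adjusted p = 0.679). The call of Gm5454 was lost without control 1 (adjusted p = 0.0767) or control 2 (0.0676).

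**Figure D4:**
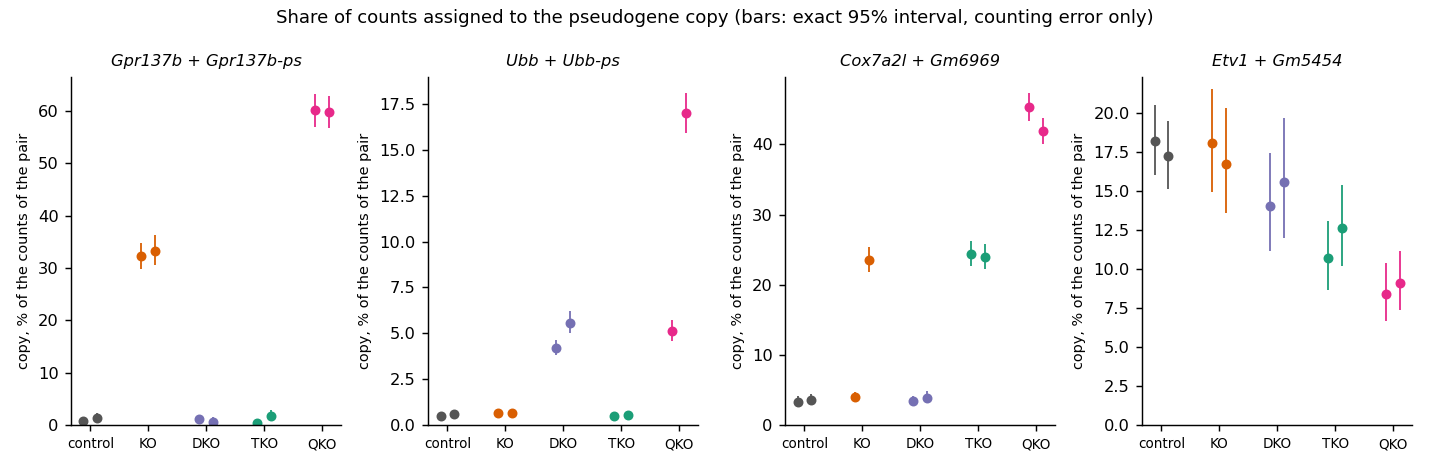
Share of the counts of a gene and its copy that fell on the copy, in percent, in each of the 10 libraries, with exact 95% intervals for counting error only. In QKO the share of Gpr137b-ps is about 60% and that of Gm6969 above 40%, the share of Ubb-ps differs between the QKO libraries, and that of Gm5454 is lowest in QKO.

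Other called genes shared sequence as well. Of Prnd windows 95.2% also occur in transcripts of the joint Prn locus, of Scp2 25.6% in Scp2-ps2, and of Etv5 18.7% in Gm4798. Jun overlaps the antisense gene Junos in 5.07% of its windows, and the use of strand in counting is not given in the sources used here. Gm7444, a pseudogene, had 0 counts in both controls and 14 and 15 in QKO, at least 10.5-fold higher against a floor of 3 counts over the control group. It had counts in every library of KO, DKO and TKO too, at 0.0253 to 0.515 CPM. Of the 44, 6 carry identifiers with no name in RefSeq, 5 of them higher, among which gene 100504494 was at 0.139 and 0.184 CPM in the controls and 2.03 and 3.79 CPM in QKO.

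Most called genes with a known place in the gene order lay near another. Of the 38 with a position in RefSeq's gene order (GRCm38.p6, used for order and not for coordinates), 24 fell in 10 runs in which neighbouring calls were at most 50 tested genes apart. One run on chromosome 13 held Akr1c19, Ero1b, Gpr137b-ps and Gpr137b within 25 tested genes, of which 8 (32%) had an unadjusted p under 0.05, where 6.89% of all genes tested did. Another on chromosome 11 held Lyrm7, 2610507I01Rik and Mrpl55 within 47, of which 16 (34%) did. On chromosome 17 H2-T24 and Mmut lay within 33, of which 13 (39.4%) did, and on chromosome 12 Serpina3h and Serpina3n within 3. In the other runs this share lay between 13.3% on chromosome 6 and 50% on chromosome 2. It was 15.4% in the run of the targeted Etv5 on chromosome 16. These windows were drawn around called genes, so the shares are a description. How often genes drawn from all those tested would form such runs was not tested. Chromosome 13 had 7 called genes among 631 tested (1.11%), the X and Y chromosomes 0.

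Calls were few near the targeted genes, as they were among all genes tested (0.236%). Within 50 tested genes on either side of Cop1, Jun, Etv1 and Etv5, the only other call was Tmem44, near Etv5. Around Jun, 17 of 100 genes (17%) had an unadjusted p under 0.05, where 6.89% of all genes tested did. Around each of Cop1, Etv1 and Etv5 6 of 100 did.

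**Figure D5:**
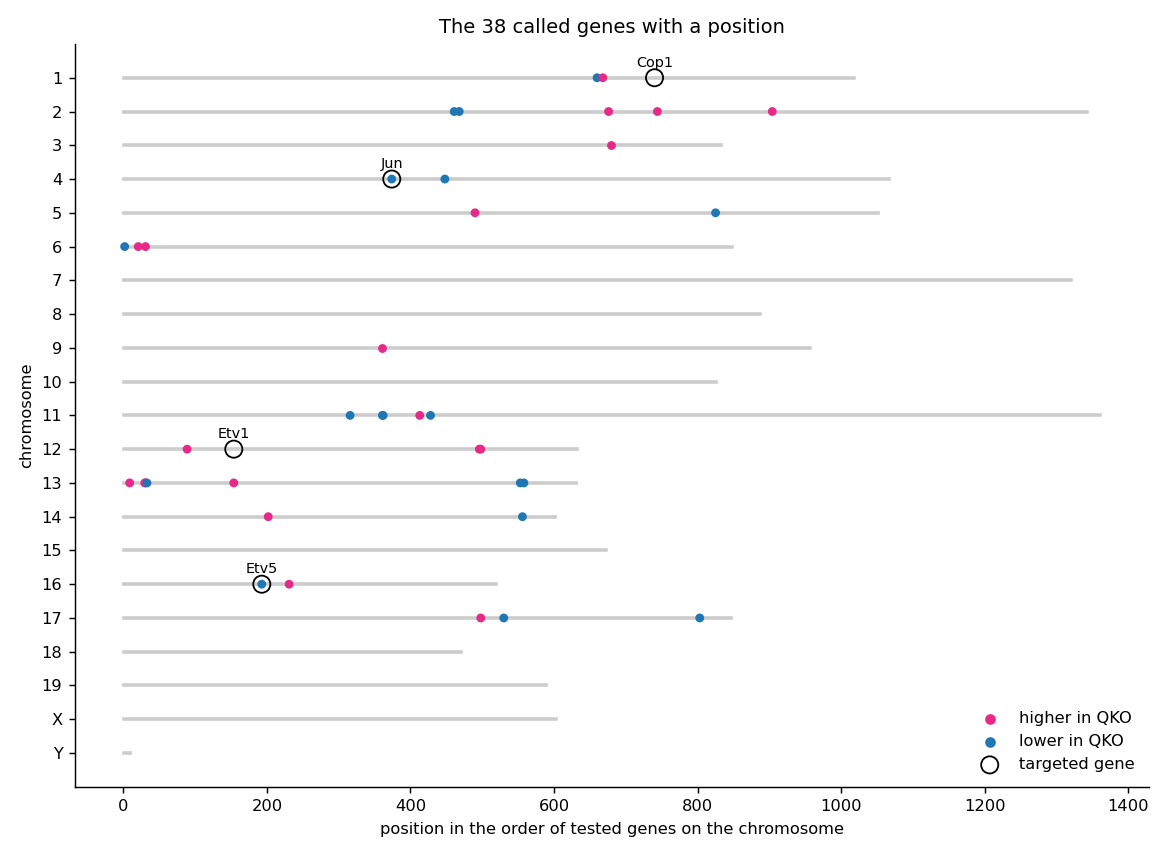
The 38 called genes with a position, placed by their rank among the tested genes of each chromosome (horizontal), coloured by direction, with circles on the 4 targeted genes. Runs of calls lie on chromosomes 1, 2, 6, 11, 12, 13, 16 and 17, the one on chromosome 16 being Etv5 itself with Tmem44 38 tested genes away, and chromosomes X and Y carry 0 calls.

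Promoters were searched for the letters that AP-1 and ETS factors bind, in the 250 bases before the start of each gene, on both strands. The AP-1 motif TGANTCA was present in 5.62% of 13097 tested genes with a promoter in the RefSeq table, and in 1 of 28 called genes (Ubb). The ETS motif CCGGAAG was present in 13.1% of them and in 3 of 28 called genes (Rpa3, Spp1 and Ubb). Both shares of the called genes, 3.57% and 10.7%, lie near those of all genes. The promoter of Spp1 is printed as the called reactive glia gene with a match. It lies at chr5:104434861-104435110 on the plus strand of GRCm38.p6, from RefSeq, and capitals mark the ETS letters, which read CCGGAAG on the other strand and begin 234 bases before the start, at position -234.
Spp1 promoter: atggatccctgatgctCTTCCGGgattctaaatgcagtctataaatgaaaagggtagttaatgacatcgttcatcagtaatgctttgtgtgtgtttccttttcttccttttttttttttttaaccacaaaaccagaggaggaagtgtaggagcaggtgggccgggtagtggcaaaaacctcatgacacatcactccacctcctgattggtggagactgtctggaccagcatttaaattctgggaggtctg
A match is not a binding site, and no binding was measured.

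No gene was called in QKO vs control in the lists of the COP1 complex, the AP-1 family other than Jun and ERK feedback. Only 0.236% of all genes tested were called, so 0 calls in these and the other short lists below carry little weight. Of 9 genes of the COP1 ligase complex and the Tribbles family 0 were called, with values between -0.06 and 0.16. Of 11 tested AP-1 family genes other than Jun 0 were called, and their median was -0.02. Fos, the partner of cJun, was at 0.21 ± 0.21, Junb at -0.11 ± 0.15 and Jund at -0.07 ± 0.12. Of 16 genes of ERK feedback, which include Etv4, 0 were called and 3 were lower at an unadjusted p under 0.05, against 3.5% of all genes tested. Those were Etv4, the phosphatase Dusp7 at -0.46 ± 0.11 and the inhibitor Spry4 at -0.29 ± 0.08, while Spry2 at 0.08 ± 0.09 and Dusp6 at 0.04 ± 0.08 were near 0. Of 12 intermediate progenitor genes, 15 cortical layer factors and 23 genes of proliferation 0 were called, with medians of 0.05, 0.05 and 0.00.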

How the data were processed

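RNA of mouse brain was measured in 10 libraries, 2 per genotype, from 1 microgram of RNA each and 75 bp paired ends, per the labels' protocols. Reads were aligned with GSNAP to NCBIM37, per the submitters' processing notes. Per the file headers, each deposited count gives the reads with a unique alignment in a gene model, and the deposited RPKM values are adjusted by a size factor (nRPKM). The sources used here do not give the annotation release or the treatment of strand and shared reads. RefSeq (GRCm38.p6) named 24998 of 28059 identifiers.

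The main test of the counts was edgeR's (version 4.0.16, R 4.3.3; quasi-likelihood test, 5 group means over 10 libraries, TMM factors, filterByExpr, Benjamini-Hochberg over 18671 genes, 5 residual degrees of freedom, biological coefficient of variation 0.0821). Alternatives used limma 3.58.1 and DESeq2 1.42.0. SE derive from the F statistic, and intervals cover 95%. CPM are counts scaled by TMM factors. A floor of 3 counts was between 0.0683 and 0.0788 CPM in these 4 libraries. Exact intervals and floors cover counting error only. A chi-square per degree of freedom of 9.80 between the controls and 19.5 between the QKO libraries shows no library deposited more than once.

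On simulated counts the QKO vs control test recovered 61.2% of 67 genes changed 1.5-fold, 85.1% of 67 changed 2-fold and 98.5% of 66 changed 4-fold. It made 11 false calls among 18347 genes. More genes were changed there than the 44 called in the data, so recovery in the data may be lower. Members, lists and pairs were chosen with earlier results of these data known. Targeted genes and Etv4 were always named, then the 12 called genes each way with the largest changes, the 10 most abundant, all called list members and the lists of reported genes. Copies were compared with Biopython 1.88 on GENCODE M21.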

Additional observations from a re-analysis of the deposited data

How the results depend on the processing

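The 44 genes called in QKO vs control (25 higher, 19 lower) kept their direction wherever any of 15 alternatives gave a value, though not in the sums of pairs given below, and 12 of them were called in all 15. DESeq2 called 91 genes (41 higher, 50 lower) and 43 of the 44, and limma-voom, median-of-ratios factors and library totals called 43, 43 and 38 of them. Without a filter on low counts 122 genes were called (60 higher, 62 lower), and with a mean count of at least 50, 15 were called higher. A fit on the 4 libraries alone called 22 (14 higher, 8 lower), 17 of them among the 44. A test against a fold of 1.2 called 20 (10 and 10). With Xist as a covariate 12 were called higher, and 20 of the 44 were called without the libraries of high Xist. Leaving out 1 library gave 16 to 69 calls, 9 to 44 higher and 7 to 32 lower.

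QKO vs KO, with 240 calls, gave 487 without a filter, 78 against a fold of 1.2, and 75 to 259 without 1 library. QKO vs TKO, with 54, gave 98 by DESeq2, 160 without a filter, 34 with a mean count of at least 50, 26 against a fold of 1.2, and 25 to 80 without 1 library. Summing pairs, chosen after seeing the data, reversed Gpr137b (0.30) and Cox7a2l (0.18). The cause of these differences was not tested. No paired analysis was possible because the labels give no replicate numbers. With 2 libraries a group, changes under 1.5-fold were often below what the test could call.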

Other observations

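Interferon response genes were mostly lower in QKO without passing the test. Of 14 tested, 0 were called, 13 had negative log2 fold changes against control with a median of -0.45, and 6 were lower and 1 higher at an unadjusted p under 0.05, against 3.5% lower and 3.38% higher of all genes tested. In KO, compared with the same control libraries, 11 of the 14 were negative with a median of -0.28. Isg15, a ubiquitin-like modifier, was at -0.58 ± 0.21 and did not pass. Summed, the list held 29.8 and 29.4 nRPKM in the controls, 27.3 and 24.1 in QKO and 33.1 and 38 in TKO.

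No gene was called in the lists of several other cell types. With 0.236% of all genes tested called, 0 calls in lists this short carry little weight. At an unadjusted p under 0.05, 3.38% of all genes tested were higher and 3.5% lower. Of 15 choroid plexus and ependymal genes 13 had positive values and 3 were higher at an unadjusted p under 0.05, with a median of 0.20 and 0 calls. Of 8 tested erythroid genes, 7 had positive values and 3 were higher at an unadjusted p under 0.05, with a median of 0.34 and 0 calls, and the list summed to 543 and 675 nRPKM in the controls and 656 and 857 in QKO. Of 15 genes of midbrain and monoamine neurons 13 had negative values and 4 were lower at an unadjusted p under 0.05, with a median of -0.23 and 0 calls. Of 20 genes of neuronal maturation 0 were called and 6 were lower at an unadjusted p under 0.05, among them Nefh, the heavy neurofilament, at -0.42 ± 0.13. Microglial genes had 0 calls of 14 and a median of -0.01.

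From a list of 21 genes chosen on the added loss of cJun or ETV1 in these data, 2 were called in QKO vs control, where 0.236% of all genes tested were, Akr1c19 and H2-T24. Tmem267, at 15.5 and 8.93 CPM in the controls and 23.1 and 22.5 in QKO, was at 0.90 ± 0.23 and did not pass, and it was called higher than in TKO (1.99 ± 0.25, adjusted p = 0.00457). The galanin receptor Galr2 was at -0.97 ± 0.23 (adjusted p = 0.227).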
